A study of Canis lupus familiaris with 20 samples.

Results

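Interleukin-1β (IL1B), interleukin-18 (IL18) and the interleukin-1 receptor antagonist (IL1RN) were followed in canine mammary cancer cells and canine macrophages that had been grown together and then sorted apart. All probes whose RefSeq accession matched these 3 symbols were taken. They are 3 of the 1045 genes that could be given a symbol, and are covered by 1 probe for IL1B, 2 for IL18 and 1 for IL1RN. Only 1648 of the 43603 distinct probes of the array could be matched to a symbol, so that many genes of the same pathway were not analysed here.

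The study used 5 canine mammary cancer lines. CMT-W1 and CMT-W2 came from adenocarcinomas, P114 from an anaplastic cancer, CMT-U27 from a simple carcinoma and CMT-U309 from a spindle-cell tumour. Each was grown with macrophages derived from CD64-positive monocytes of dog blood, called MQ in the labels. Cancer cells were stained with the dye CMTMR, monocytes were laid on top, and after at least 72 h stained cancer cells and unstained macrophages were separated by flow cytometry. Each sorted population was hybridised on 2-colour arrays against the same cells grown alone, with the dyes swapped on the other array of the pair. This gave 20 arrays, 10 of cancer cells and 10 of macrophages, and each dye-swap pair was counted as 1 replicate (n = 5 co-cultures for each cell type).

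The limits of these groups as a model come from the design. Each line is a single established line, the number of blood donors is not given in the sources used here, and the macrophage mono-culture of the 5 pairs may be 1 RNA. Its channels correlated at 0.976 to 0.990 between pairs, against 0.573 to 0.964 for the mono-cultures of the 5 cancer lines. Co-cultured cells were trypsinised and sorted and mono-cultured cells were scraped, so that sorting and co-culture cannot be told apart. In a sorted population, fewer cells of a type and less RNA per cell cannot be told apart either.

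Interleukin-1β is the main secreted alarm cytokine of activated monocytes and macrophages. It is made as a precursor that caspase-1 cuts inside inflammasomes, and it signals through the interleukin-1 receptor and MYD88 to NF-κB and MAP kinases. Interleukin-18 is cut by the same protease but, unlike IL1B, is made ahead of need by macrophages and by many epithelia, and acts with interleukin-12 on lymphocytes. The antagonist encoded by IL1RN binds the interleukin-1 receptor without signalling, and so holds back the action of interleukin-1.

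Between 51.0% and 96.3% of spots in the co-culture channel of the cancer cell arrays, and between 54.5% and 74.7% of those of the macrophage arrays, were well above background. The arrays of the CMT-U309 cancer cells stood apart, with 9870 spots marked as outliers in the array with the co-culture in Cy5. No spot of the 3 cytokines was marked as an outlier or saturated on any of the 20 arrays. Within a dye-swap pair the ratios correlated at 0.72 to 0.96 over the genes tested, and the lowest value belonged to the CMT-W1 cancer cells.

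Sorted macrophages and cancer cells were first checked against markers. In mono-culture the labels held: the summed signal of 17 macrophage markers was 924537 to 1213769 in macrophages and 5312 to 43629 in cancer cells. After co-culture the 2 populations overlapped, at 85978 to 398183 in macrophages and 24909 to 885709 in cancer cells. Of the 17 markers, 15 rose and none fell in co-cultured cancer cells, while none rose and 16 fell in co-cultured macrophages. Among all genes tested 6.65% were called higher in cancer cells and 28.1% lower in macrophages (limma, adjusted p under 0.05). The median log2 ratio of the markers had the sign of IL18 in every co-culture of both cell types and that of IL1B in all 5 cancer lines. In macrophages it also fell with CMT-U27 (-2.82) and CMT-U309 (-1.70), where IL1B and IL1RN lay above 0. The part of the marker shifts in the results was not tested.

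In cancer cells IL1B was higher after co-culture in all 5 lines. The ratio of the co-cultured to the mono-cultured cells, on the log2 scale used throughout, was 7.75 in CMT-U27, 5.28 in CMT-U309, 3.59 in P114, 1.92 in CMT-W1 and 6.82 in CMT-W2. The ratio was highest in CMT-U27 and CMT-W2 and lowest in CMT-W1, and it was positive on all 10 arrays, with at least a 3-fold rise on 9 of them. The mean was 5.07 ± 2.37 (SD, n = 5; limma with Benjamini-Hochberg adjustment over all genes, adjusted p = 0.0135). At that threshold of 0.05, 14.2% of the 24033 genes tested in cancer cells were called, 6.65% as higher and 7.54% as lower.

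The control of this comparison was dim. In co-cultured cancer cells 9 of 10 arrays had IL1B well above background, but only 3 of 10 did in the same lines grown alone, 1 of CMT-U27 and 2 of CMT-U309. IL1B thus entered the test through its co-cultures, and the ratios of P114, CMT-W1 and CMT-W2 have no measured control. With each mono-culture array that was not well above background raised to the lowest signal that was, the ratios were 7.75 in CMT-U27, 5.28 in CMT-U309, 1.72 in P114, 0.04 in CMT-W1 and 4.97 in CMT-W2. Their mean of 3.95 is a lower bound, at least 15.5-fold, and leaves CMT-W1 near 0. The call was lost with normexp background correction and loess normalisation together (mean log2 ratio 2.45, limma, adjusted p = 0.126) and with median centring (2.71, adjusted p = 0.105). The median ratio of the 17 macrophage markers in the same cells was 4.52 in CMT-U27, 2.93 in CMT-U309, 3.25 in P114, 2.18 in CMT-W1 and 4.44 in CMT-W2, so that CMT-W1 was also the lowest and CMT-U27 and CMT-W2 also the highest for the markers.

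In macrophages IL1B split by co-culture. Its log2 ratio was 0.05 with CMT-U27 and 0.55 with CMT-U309, but -4.79 with P114, -3.91 with CMT-W1 and -2.08 with CMT-W2. Macrophages grown with the first pair of lines stayed near their mono-culture level, while those grown with the other 3 lines lay well below it. The 2 arrays of each pair differed by at most 0.17, far less than the co-cultures did, and every array in both channels was well above background. The mean was -2.04 ± 2.35 (SD, n = 5; limma, adjusted p = 0.0639), which did not pass the threshold. In macrophages 49.3% of the 24228 genes tested were called, 21.2% as higher and 28.1% as lower.

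**Figure D1:**
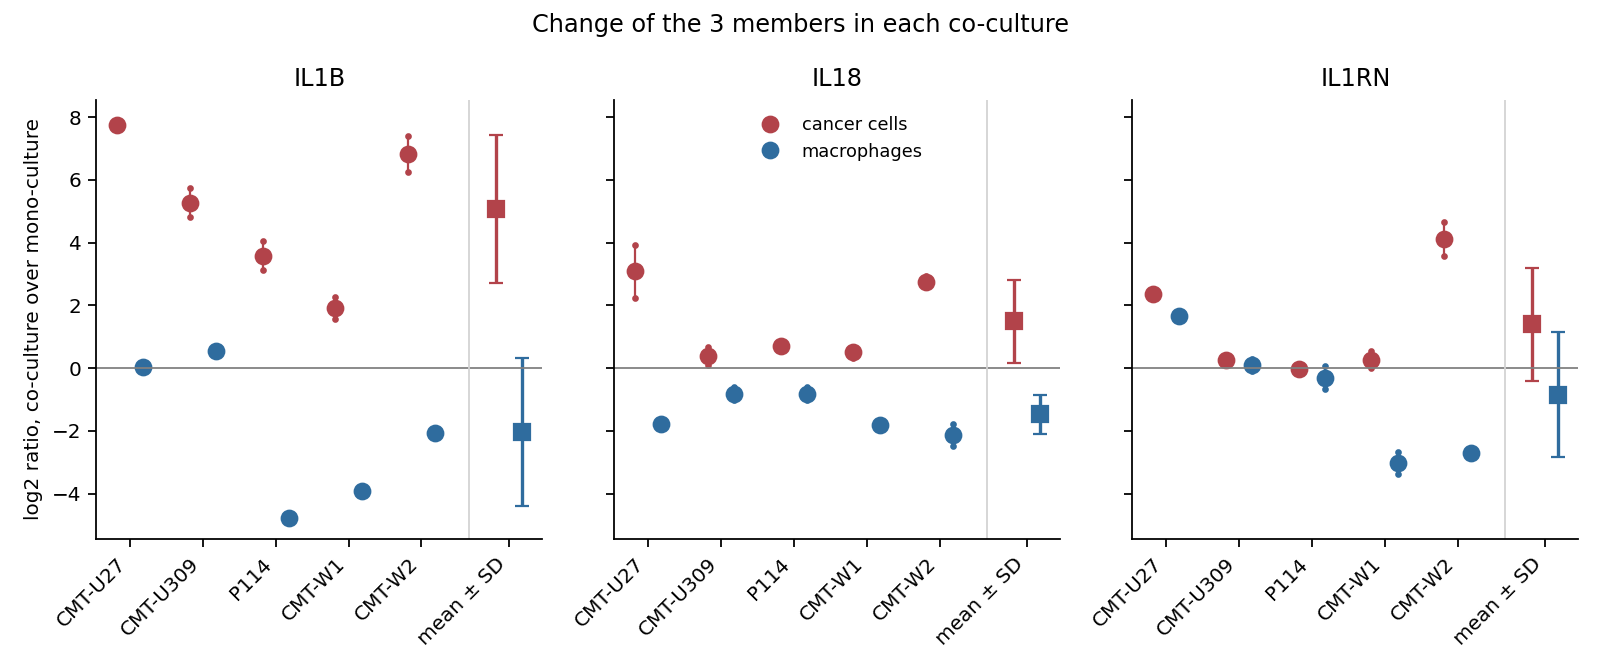
Co-culture over mono-culture (log2 ratio) of IL1B, IL18 (brighter probe) and IL1RN in sorted cancer cells (red) and sorted macrophages (blue) of the 5 co-cultures. Large circles are dye-swap means, small points the 2 arrays, and squares with bars the mean ± SD over 5 co-cultures. The red circle lies above the blue one in every co-culture, with a difference (macrophages minus cancer cells) from -8.90 for IL1B in CMT-W2 to -0.13 for IL1RN in CMT-U309.

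IL18 fell in macrophages in every co-culture. On its brighter probe the log2 ratio was -1.78 with CMT-U27, -0.82 with CMT-U309, -0.81 with P114, -1.81 with CMT-W1 and -2.13 with CMT-W2. The fall was the most even of the 3 cytokines in macrophages. The mean was -1.47 ± 0.62 (SD, n = 5), 2.77-fold lower than in mono-culture (limma, adjusted p = 0.00464). If the macrophage mono-cultures are 1 RNA, the 5 ratios share that control and are not independent in direction. All p-values and calls of macrophage ratios, and of differences between the cell types, then leave out the spread of that control.

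In cancer cells the brighter IL18 probe gave log2 ratios of 3.09 in CMT-U27, 0.38 in CMT-U309, 0.70 in P114, 0.50 in CMT-W1 and 2.76 in CMT-W2. CMT-U27 and CMT-W2 stood above the other 3 lines, as they did for IL1B. The mean of 1.49 ± 1.32 (SD, n = 5) did not pass the threshold (limma, adjusted p = 0.0741).

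The other IL18 probe gave larger values in cancer cells, at 7.13 in CMT-U27, 1.98 in CMT-U309, 1.66 in P114, 2.11 in CMT-W1 and 4.06 in CMT-W2. Their mean was 3.39 ± 2.30 (SD, n = 5), and it passed when every probe was tested on its own (limma, adjusted p = 0.0300). Both IL18 probes were higher in all 5 lines, so they differed in size and in the call, not in direction. Mono-cultured cancer cells had the brighter probe well above background on 7 of 10 arrays, and the other probe on 4 of 10, none of them of CMT-U27, CMT-W1 or CMT-W2. Against the lowest signal well above background, the other probe was higher by at least 5.11 in CMT-U27 and 2.48 in CMT-W2, and no rise could be bounded in CMT-W1. In macrophages the other probe gave a mean of -1.77 ± 1.21 (SD, n = 5; limma over all probes, adjusted p = 0.0134), the same direction and call as the brighter probe.

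**Figure D2:**
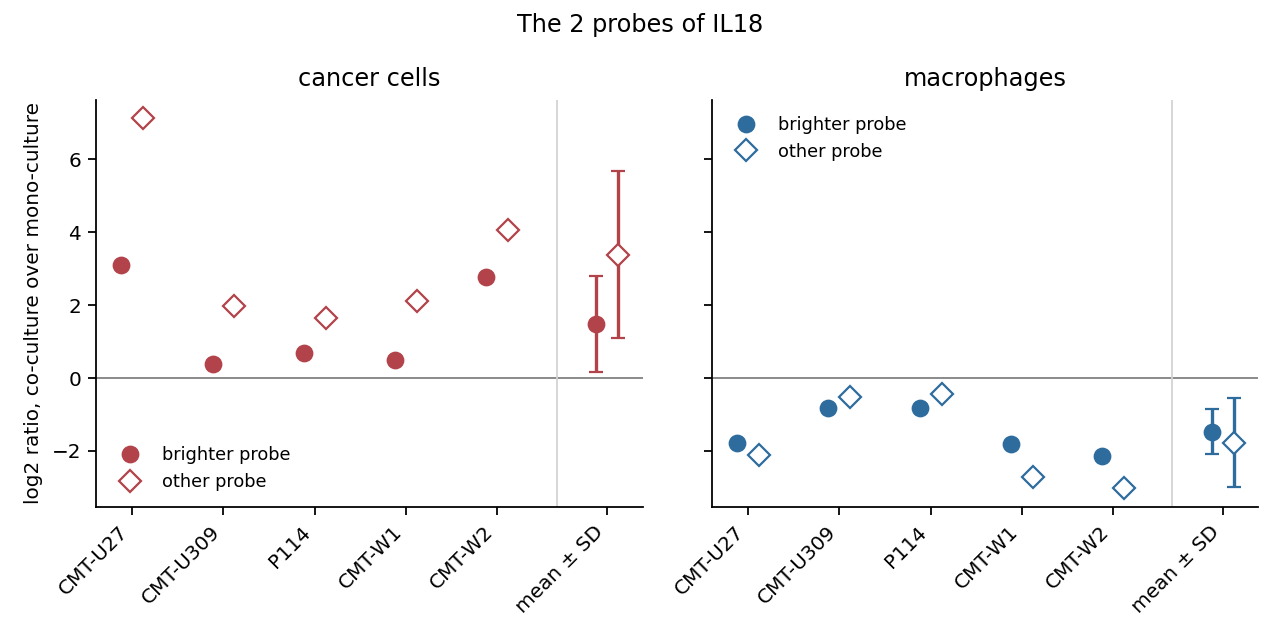
Co-culture over mono-culture (log2 ratio) for the brighter (filled circles) and the other (open diamonds) probe of IL18 in cancer cells and in macrophages of the 5 co-cultures, with the mean ± SD at the right of each panel. In cancer cells the other probe lay above the brighter one in all 5 lines (means 3.39 and 1.49), while in macrophages the means were -1.77 and -1.47.

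IL1RN did not pass the threshold in either population. In cancer cells its log2 ratio was 2.37 in CMT-U27 and 4.12 in CMT-W2, but 0.25 in CMT-U309, -0.02 in P114 and 0.27 in CMT-W1. The mean was 1.40 ± 1.80 (SD, n = 5; limma, adjusted p = 0.158), carried by the same pair of lines that led IL1B and IL18. In CMT-W1 the antagonist was not well above background on any of the 2 arrays in either culture, so its ratio there has no measured level on either side. In CMT-W2 the control was not measured, and the rise there was at least 2.15.

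In macrophages the IL1RN log2 ratio was 1.67 with CMT-U27, 0.11 with CMT-U309, -0.31 with P114, -3.03 with CMT-W1 and -2.71 with CMT-W2. It lay above the mono-culture with CMT-U27 and far below it with the 2 adenocarcinoma lines. The mean of -0.85 ± 1.99 (SD, n = 5) had an adjusted p of 0.321 with limma. Every macrophage array was well above background for IL1RN in both channels.

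The change in macrophages was set against that in cancer cells. For IL1B the difference, macrophages minus cancer cells, was -7.70 in CMT-U27, -4.74 in CMT-U309, -8.38 in P114, -5.83 in CMT-W1 and -8.90 in CMT-W2. The mean difference was -7.11 with a standard error of 1.26 (limma, adjusted p = 0.00143), with the same dim control on the cancer cell side. For IL18 the mean difference was -2.96 with a standard error of 0.59 (limma, adjusted p = 0.00288), and it ranged from -4.89 to -1.20 over the 5 co-cultures. Both cytokines moved lower in macrophages than in cancer cells in 5 of 5 co-cultures.

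For IL1RN the difference had the same sign in 5 of 5 co-cultures but was close to 0 in 3 of them, at -0.70 in CMT-U27, -0.13 in CMT-U309 and -0.29 in P114, against -3.30 in CMT-W1 and -6.83 in CMT-W2. Its mean of -2.25, with a standard error of 1.02, did not pass (limma, adjusted p = 0.114). In CMT-W1 and CMT-W2 the cancer cell control of IL1RN was not well above background, and in CMT-W1 neither was the co-culture. The large differences there thus rest on dim signals. Of the 25242 genes tested for this difference 31.8% were called, 15.0% as higher in macrophages and 16.8% as lower. Only 1 of the 5 slides held both cell types, namely MQ of CMT-U27 and cancer cells of CMT-W1. Within it the difference was -1.87 for IL1B, -2.28 for IL18 and 1.39 for IL1RN, and with slide as a fixed block none of the 3 passed (limma, adjusted p of 0.715, 0.548 and 0.818).

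The levels behind these ratios were compared as log2 processed signals, each on its own probe, which for IL18 was the brighter one. In mono-culture IL1B averaged 12.55 ± 0.04 (SD, n = 5) in macrophages and 5.35 ± 1.38 in cancer cells, where the lines gave 7.02 (CMT-U27), 6.37 (CMT-U309), 3.79 (P114), 5.39 (CMT-W1) and 4.17 (CMT-W2), the last 3 not well above background on any array. The groups did not overlap. The difference of 7.20 had a two-sided exact permutation p of 0.00794, the smallest that 5 against 5 can give (adjusted p = 0.0159 over 6 such tests). If the macrophage mono-cultures are 1 RNA, the macrophage side of this test and of those on IL18 and IL1RN in mono-culture is a single sample, and these p-values are too small.

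After co-culture the IL1B levels of the sorted populations overlapped. Cancer cells reached 14.77 in CMT-U27, 11.66 in CMT-U309, 7.38 in P114, 7.31 in CMT-W1 and 11.00 in CMT-W2. The macrophages sorted from the same cultures had 12.60, 13.07, 7.73, 8.68 and 10.50 in that order of lines. CMT-U27 and CMT-W2 cancer cells thus stood above the macrophages they were grown with, and the other 3 lines stood below. The mean difference between the cell types was 0.09 (two-sided exact permutation test, p = 0.960).

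IL18, on its brighter probe, had the narrowest span of levels. Mono-cultured macrophages gave 10.50 to 10.94 and mono-cultured cancer cells 5.86 to 9.11, with a mean difference of 2.84 and no overlap (two-sided exact permutation p = 0.00794, adjusted p = 0.0159). After co-culture cancer cells lay between 8.32 and 10.89 and macrophages between 8.41 and 10.13. Their means of 9.36 ± 1.00 and 9.24 ± 0.77 (SD, n = 5) were not told apart by the unpaired two-sided exact permutation test (p = 0.833). On the other probe mono-cultured macrophages gave 10.22 to 10.64. Mono-cultured cancer cells gave 4.05 to 7.82 on it, well above background on 4 of 10 arrays.

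The antagonist separated the cancer lines even without macrophages. In mono-culture IL1RN stood at 9.80 in CMT-U27, 9.45 in CMT-U309 and 9.52 in P114, well above background on every array of these lines. It stood at 4.76 in CMT-W1 and 4.05 in CMT-W2, where no array was well above background. Against the mean of mono-cultured macrophages, 10.45 ± 0.21 (SD, n = 5), the 3 former lines held 63.5%, 49.8% and 52.3% of the signal, and the 2 adenocarcinoma lines at most 11.0% (CMT-W1) and 4.66% (CMT-W2), the shares of the lowest signal well above background. This split among lines was seen in the values and was given no test.

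Across all 5 lines the mono-cultured macrophages were above the cancer cells for IL1RN by 2.94 log2 units without overlap (two-sided exact permutation p = 0.00794, adjusted p = 0.0159). After co-culture cancer cells gave 12.17 in CMT-U27, 9.70 in CMT-U309, 9.49 in P114, 4.92 in CMT-W1 and 8.18 in CMT-W2, and macrophages 12.21, 10.84, 10.16, 7.13 and 7.65 in the same order. In CMT-W2 the antagonist was well above background on both arrays after co-culture and on neither before it. The mean difference of 0.71 between the co-cultured populations was within the spread between lines (unpaired two-sided exact permutation p = 0.627).

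**Figure D3:**
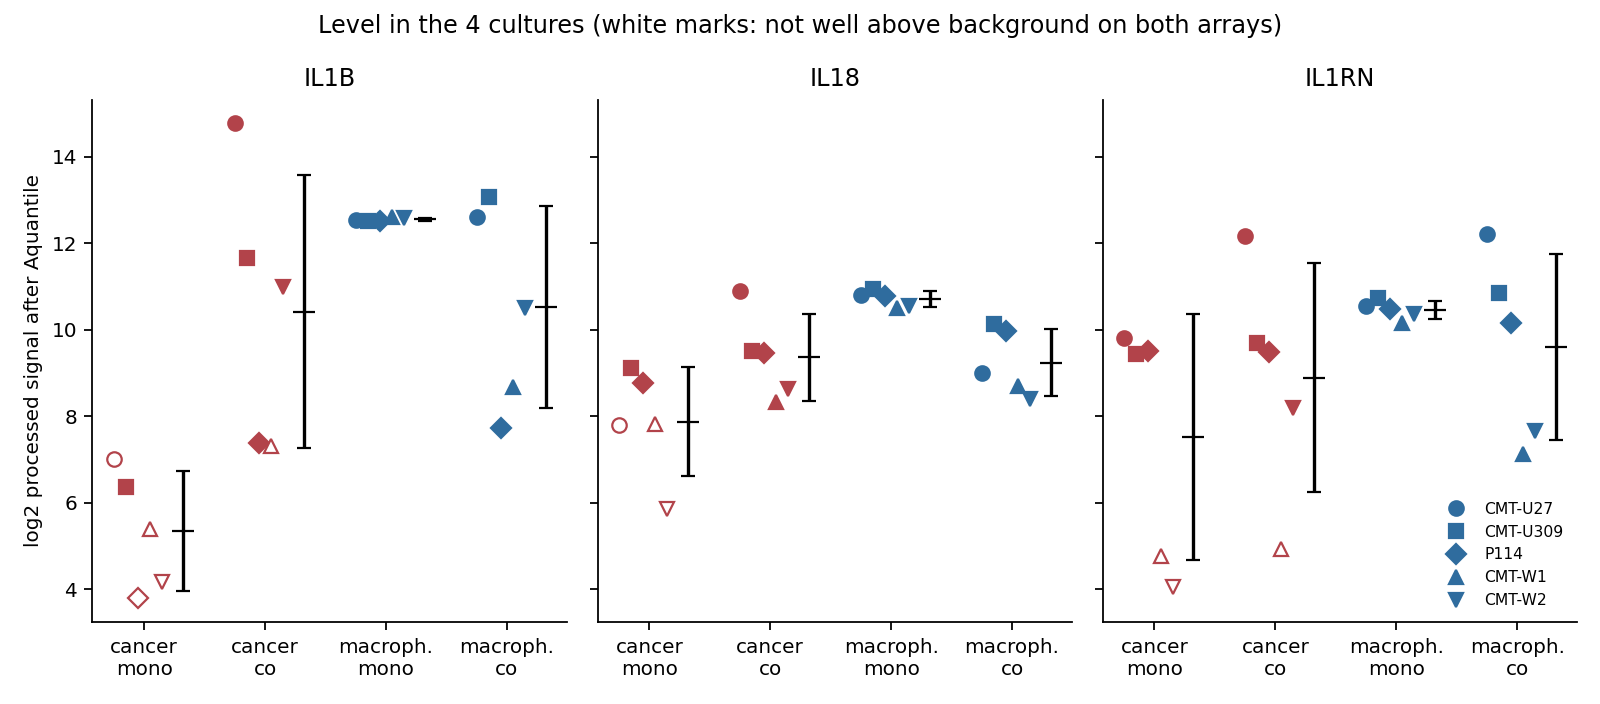
Log2 processed signal (after Aquantile normalisation) of IL1B, IL18 and IL1RN in mono-cultured (mono) and co-cultured (co) cancer cells (red) and macrophages (blue), with 1 mark per line and the mean ± SD over 5 lines beside them; white marks were not well above background on both arrays. The macrophage mono-cultures form a tight cluster (IL1B 12.52 to 12.60), while co-cultured macrophages and cancer cells spread over the same range. IL18 is drawn by its brighter probe.

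The order of the mean levels was the same at its ends for the 3 cytokines, with mono-cultured macrophages highest and mono-cultured cancer cells lowest. The co-cultured populations lay between them and overlapped each other for every cytokine. For IL1B the means of these were 10.52 ± 2.34 in macrophages and 10.42 ± 3.15 in cancer cells (SD, n = 5).

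Each cytokine was also set against its own level in mono-cultured macrophages, beside the macrophage markers treated in the same way. IL18 was taken by its brighter probe. In co-cultured CMT-U27 cells IL1B reached 465%, IL18 113% and IL1RN 328% of that level, while the median of the 17 markers was 59.2%. In co-cultured CMT-W1 cells IL1B reached 2.64%, well above background on 1 of 2 arrays, beside a marker median of 2.42%, and IL1RN, not well above background, could be at most 8.91%. In CMT-U309 the values were 53.7%, 43.1% and 59.2% for IL1B, IL18 and IL1RN, beside a marker median of 13.0%. Grown alone, CMT-U309 cells already held 1.38%, 33.1% and 49.8% in that order, beside a marker median of 1.29%. The IL18 share depends on the probe. On the other IL18 probe these cells stood at 6.97, further below the macrophage mean (10.37) than on the brighter one (9.11 and 10.71). P114 cells held 2.78% of the macrophage level of IL1B, beside a marker median of 4.97%, and CMT-W2 cells held 34.1%, beside 14.9%. Thus IL1B stood above the marker median in 4 of 5 lines and below it in P114.

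In co-cultured macrophages the markers had fallen further than the cytokines in most cultures. Their median was 17.8% of the mono-culture level with CMT-U27, 28.8% with CMT-U309, 7.12% with P114, 5.22% with CMT-W1 and 5.12% with CMT-W2. IL1B was at 103%, 143%, 3.54%, 6.85% and 24.1% in that order, so that P114 was the only co-culture in which it lay below the markers. IL18, at 20.3% to 66.9%, and IL1RN, at 9.99% to 338%, lay above the marker median in all 5.

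**Figure D4:**
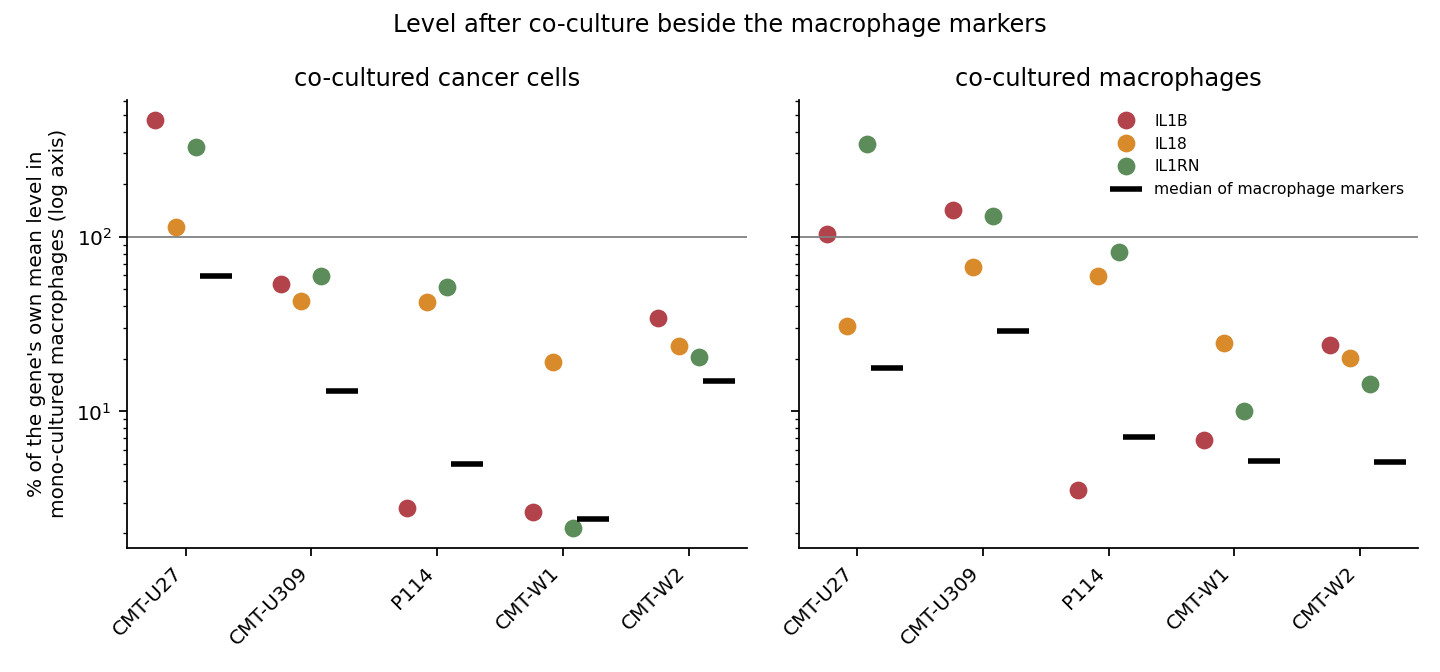
Level of IL1B, IL18 and IL1RN after co-culture as a percentage of each gene's own mean level in mono-cultured macrophages (log axis), in sorted cancer cells and sorted macrophages of the 5 co-cultures; black bars are the median of 17 macrophage markers on the same scale and the grey line marks 100%. In CMT-U27 cancer cells all 3 cytokines lie above 100% (IL1B 465%) and the marker median at 59.2%. IL18 is drawn by its brighter probe.

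The change of the agonist was set against that of its antagonist, and no gap passed the test. In cancer cells the IL1B log2 ratio exceeded that of IL1RN by 5.38 in CMT-U27, 5.04 in CMT-U309, 3.62 in P114, 1.64 in CMT-W1 and 2.70 in CMT-W2. The mean gap was 3.67 ± 1.57 (SD, n = 5), positive in 5 of 5 lines (two-sided exact sign-flip permutation p = 0.0625, the smallest that 5 values can give, adjusted p = 0.188 over 6). In CMT-W1 IL1RN was measured in neither culture, and without this line the mean gap was 4.18 ± 1.25 (SD, n = 4). IL1B in mono-cultured P114, CMT-W1 and CMT-W2, and IL1RN in CMT-W2, were not measured either, so that these gaps rest on dim signals. IL1B exceeded the brighter IL18 probe in 5 of 5 lines, by 3.59 ± 1.44 (SD, n = 5) with the same exact p. Against the other IL18 probe the gap was 1.68 ± 1.46 (SD, n = 5), positive in 4 of 5 lines, with 0.61 in CMT-U27 and -0.19 in CMT-W1. IL1RN and IL18 differed by -0.09 ± 0.85 (SD, n = 5; exact sign-flip permutation p = 0.812).

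In macrophages the gap between IL1B and IL1RN took both signs, at -1.62 with CMT-U27, 0.43 with CMT-U309, -4.48 with P114, -0.89 with CMT-W1 and 0.64 with CMT-W2. The mean was -1.18 ± 2.07 (SD, n = 5; exact sign-flip permutation p = 0.312). P114 set the pair furthest apart, with IL1B at -4.79 and IL1RN at -0.31.

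Of 9 other ligands and antagonists of the family 3 could be matched, and all 3 were called higher in cancer cells, where 6.65% of all genes were. Genes with a symbol, from which every list is drawn, were called more often in either direction. Their share was 21.9% in cancer cells, against 14.2% of all genes, and 51.1% in macrophages, against 49.3%. IL1A, the sister agonist of IL1B on the same receptor, rose by 5.25 ± 1.65 in cancer cells (SD, n = 5; limma, adjusted p = 0.00406) and fell by 1.89 in macrophages (SD 1.70, limma, adjusted p = 0.0300). Mono-cultured cancer cells had IL1A well above background on 3 of 10 arrays, and with the others at the lowest signal that was, the rise was at least 21.1-fold. IL18BP, a secreted protein that binds and neutralises interleukin-18, rose by 2.00 ± 1.02 in cancer cells (limma, adjusted p = 0.0184) and fell by 1.42 in macrophages (adjusted p = 0.0111). IL33, an alarm cytokine stored in the nucleus, was not well above background on any array of mono-cultured cancer cells. Its call, at a log2 ratio of 2.6 (limma, adjusted p = 0.0298), thus has no measured control. Against the lowest signal well above background its mean was 1.21 (SD 2.23), 2.32-fold. That bound was positive in 4 of 5 lines and -2.61 in CMT-W1. IL33 was too dim to be tested in macrophages.

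No receptor of the family could be matched. Of 18 genes of the inflammasome and of processing 4 were tested, of which 2 rose in cancer cells and the same 2 fell in macrophages. Of all genes 6.65% were called higher in cancer cells and 28.1% lower in macrophages; the list is too short to read against these shares. CASP4, an inflammatory caspase, gave 3.18 ± 1.81 in cancer cells (limma, adjusted p = 0.0191) and -2.16 ± 1.34 in macrophages (adjusted p = 0.00834). P2RX7, the ATP-gated channel that triggers release of interleukin-1β, gave 1.44 ± 0.97 (limma, adjusted p = 0.0418) and -1.98 ± 0.55 (adjusted p = 0.00121). CASP8 (0.57 and -0.43) and HMGB1 (0.15 and 0.89), a nuclear protein released from damaged cells, did not pass in either. The list medians were 1.00 in cancer cells and -1.21 in macrophages, beside -0.05 and -0.17 over all genes.

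Of 30 signalling genes 4 were tested. NFKB1, which encodes a subunit of NF-κB, was the gene that rose in both populations, by 1.33 ± 0.74 in cancer cells (limma, adjusted p = 0.0316) and 0.74 ± 0.50 in macrophages (adjusted p = 0.0441). MAPK14, the p38α kinase, fell by 1.26 in macrophages (limma, adjusted p = 0.0226) and had a ratio of 0.73 in cancer cells that did not pass. MAP2K1 (0.74 and 0.66), which lies on the ERK branch, passed in neither. The list medians were 0.74 and 0.54.

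Of 23 genes that interleukin-1 is known to induce 15 were tested in each population. In cancer cells 9 rose and none fell, with a median of 3.74, and in macrophages 7 rose and none fell, with a median of 0.95. Over all genes tested 6.65% were called higher and 7.54% lower in cancer cells, with a median of -0.05, and 21.2% higher and 28.1% lower in macrophages, with a median of -0.17. The 7 called in cancer cells and not in macrophages were the neutrophil chemokine CXCL8 (7.67 ± 1.5), the prostaglandin synthases PTGS2 (7.17 ± 2.21) and PTGES (3.74 ± 0.70), the chemokines CCL2 (4.86 ± 0.60) and CCL5 (3.99 ± 0.56), the gelatinase MMP9 (3.09 ± 0.86) and the adhesion molecule ICAM1 (1.41 ± 0.92). All of these had adjusted p from 0.000376 to 0.0400 with limma.

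IL6 and CSF2, cytokines that act on acute-phase and myeloid responses, rose in both populations. IL6 rose by 4.37 ± 1.54 in cancer cells and 4.53 ± 1.56 in macrophages, and CSF2 by 4.06 ± 1.59 and 4.31 ± 1.39. In mono-culture IL6 cleared background on 4 of 10 cancer cell arrays and 2 of 10 macrophage arrays, which bounds its rises at no less than 3.81 and 3.66. Among those called in macrophages and not in cancer cells were PLAU (2.48 ± 1.75), an activator of plasminogen, MMP3 (5.37 ± 3.62), CCL20 (3.47 ± 2.05) and LIF (0.95 ± 0.82). MMP3 was well above background on only 1 of 10 arrays of mono-cultured macrophages, so that its rise was at least 3.58, positive in 4 of 5 co-cultures. The difference between populations passed for 7 of the 15, of which 6 were lower in macrophages (CXCL8, PTGS2, PTGES, CCL2, CCL5 and MMP9) and 1 higher.

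Of 8 genes tied to interleukin-18 3 were tested, and IL12A was the only one called. It encodes a subunit of interleukin-12, the partner of interleukin-18 on lymphocytes, and rose by 3.79 ± 1.30 in macrophages (SD, n = 5; limma, adjusted p = 0.000816), with 1.48 ± 1.32 in cancer cells (adjusted p = 0.0742). Its control in macrophages cleared background on 4 of 10 arrays, which bounds the rise at no less than 3.34. IL12B, which encodes the other subunit, gave 2.11 ± 1.92 and -0.07 ± 1.41, and TNF 0.49 ± 0.34 and 0.32 ± 0.49. IFNG, which interleukin-18 is known for inducing, was too dim to be tested in either population.

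**Figure D5:**
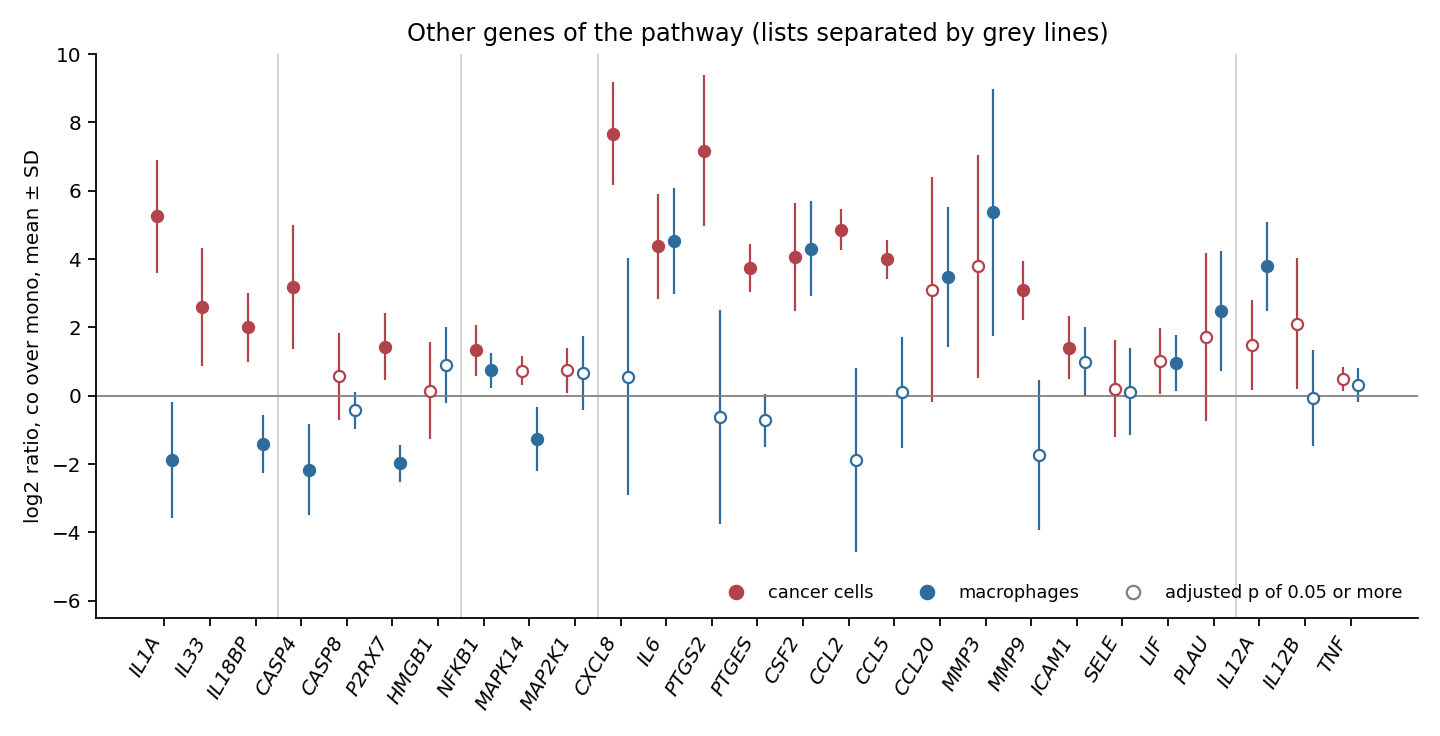
Mean ± SD of the log2 ratio, co-culture over mono-culture, (n = 5 co-cultures), of tested genes of the pathway in cancer cells (red) and macrophages (blue), in the order ligands, processing, signalling, genes induced by interleukin-1 and genes tied to interleukin-18; open circles had an adjusted p of 0.05 or more, and IL33 is drawn at its fitted ratio although its control was not measured. IL1A, IL18BP, CASP4 and P2RX7 lie above 0 in cancer cells and below it in macrophages, while IL6 and CSF2 lie above 4 in both.

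Over the 10 populations, the 5 genes whose ratios were most like those of IL1B, among 700 with a symbol, included FUCA1, CASP4, ADGRE1 and IL1A (Pearson r of 0.96 to 0.97). ADGRE1 is an adhesion receptor used as a macrophage marker. IL18 itself correlated with IL1B at 0.87 over all 10 populations, but at 0.84 within cancer cells and -0.02 within macrophages. For IL18 the most alike were ADORA1, CEACAM23, PDPN, DLA-64 and UGCG (0.93 to 0.98). For IL1RN they were LOC477518, PMAIP1, ATP7B, RBM47 and CCL4 (0.86 to 0.88). These correlations are a description, since the cancer and macrophage populations form separate clusters and the macrophage pairs may share 1 control RNA.

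Markers of other cells were read beside the cytokines. Of 3 epithelial markers tested in cancer cells CLDN3 fell, and of 4 in macrophages OCLN and TJP1 were called higher. OCLN was not well above background on any array of mono-cultured macrophages. Its call, at a log2 ratio of 2.51 (limma, adjusted p = 0.0430), thus has no measured control. Against the lowest signal well above background its mean was 0.56 (SD 2.53), 1.48-fold, and positive in only 2 of 5 co-cultures. Of 5 neutrophil and platelet markers S100A8 rose in cancer cells, by 3.46 ± 0.73, and fell by 4.58 in macrophages, where ELANE and ITGB3 rose. The controls of ELANE and ITGB3 there cleared background on 5 and 2 of 10 arrays, which bounds their mean rises at no less than 0.59 and 1.09. Of the lymphocyte markers CD28 rose in cancer cells (1 of 2 tested), against a control well above background on 1 of 10 arrays, and CD8A fell in macrophages (1 of 4). Over all genes tested 6.65% were called higher and 7.54% lower in cancer cells, and 21.2% higher and 28.1% lower in macrophages. These marker lists are too short to read against such shares. The part of these shifts in the cytokine results was not tested.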

How the data were processed

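Per the labels, 20 canine 2-colour Agilent arrays were read with Agilent Feature Extraction 10.7.3.1. The authors deposited scanner tables with a dye-normalised log10 ratio of Cy5 over Cy3, the processed intensity of each channel, and other marks for background, saturation and outliers (0 or 1). The deposited value table holds the same log10 ratios turned to co-culture over mono-culture, within 5e-06, with column medians of 0 except -0.0197 and -0.0665 for CMT-U309 cancer cells. The unpaired test of the methods was tried only as an alternative, and their fold threshold was used only to count arrays.

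From these, log2 ratios of co-culture over mono-culture were formed by the dyes in the labels. Spots marked as outliers were dropped and the 2 arrays of each pair averaged. Where only 1 array of a pair was unmarked it stood for the pair, and requiring both was an alternative chosen after seeing the data, as were the bounds for dim controls, in which each mono-culture array not well above background took the higher of its own signal and the lowest one well above background on that array. A gene was its brightest probe. It entered a test if 3 or more of the 5 co-cultures had both arrays well above background in the co-culture or the mono-culture channel. Tests used limma 3.58.1 (R 4.3.3) against 0, and a term for each cell type where these were compared. Benjamini-Hochberg adjustment ran over all genes tested, at 0.05. The fit was tested on simulated data. Levels are log2 processed intensities after Aquantile normalisation. Depth does not apply to arrays, whose number limits the precision, and p-values measure the spread between 5 lines.

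The members and the lists (family ligands, receptors, processing, signalling, genes induced by interleukin-1 or tied to interleukin-18, and markers of macrophages, epithelium, lymphocytes, and neutrophils and platelets) were chosen with earlier results of these data known. Genes named with values were the tested genes of the first 4 lists, called genes of the induced lists, and the 5 most alike each member. IL12B and TNF, and the markers, were named after their values were seen. Some genes that these rules name are not reported here. Names came from RefSeq accessions of the assembly UU_Cfam_GSD_1.0. The grid build of the files differs, so that no coordinates are given, and sequences were not used here.

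Populations sorted from 1 co-culture form a pair by the design. Deviations of the 2 cell types from their means correlated at 0.06 to 0.51 within a co-culture and at -0.39 to 0.16 between co-cultures (22999 genes), with 3 of 5 pairs over 0.1.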

Additional observations from a re-analysis of the deposited data

Results flagged for a closer look

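The change of IL1B differed between the cell types, with a mean log2 difference, macrophages minus cancer cells, of -7.11 (limma, adjusted p = 0.00143, lower in macrophages in 5 of 5 co-cultures). The change of IL18 differed in the same direction, by -2.96 (limma, adjusted p = 0.00288, 5 of 5 co-cultures). With slide as a fixed block these were -1.87 and -2.28 and neither passed (adjusted p of 0.715 and 0.548). Median centring left the IL1B difference at -3.96, short of the threshold (limma, adjusted p = 0.0584). Mono-cultured cancer cells had IL1B well above background on 3 of 10 arrays, so that its difference rests on a dim control. Over 18 groups of 5 values, no single co-culture of a cytokine stood apart from the other 4 by Dixon's test.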

How the results depend on the processing

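Over 20 alternatives of the ratio tests, 146 of 160 values of the 3 cytokines kept their direction and their side of the threshold. The cause of the exceptions was not tested. The count overstates how hard the values were tested, since some alternatives could not move the ratios. The deposited value table holds the same ratios, and no spot of the 3 cytokines was marked as an outlier. Keeping marked spots, or requiring both arrays of a pair to be unmarked, thus left their ratios unchanged. Testing every probe on its own also left the ratios of the brightest probes unchanged, with IL1B in cancer cells at 5.07. IL1B in cancer cells no longer passed with normexp and loess (2.45), with median centring (2.71) or with the methods' t-test (5.07, adjusted p = 0.259). The difference of IL1B missed the threshold with median centring (-3.96, adjusted p = 0.0584). With slide as a fixed block, where only 1 slide compares the cell types, the differences were -1.87 for IL1B, -2.28 for IL18 and 1.39, reversed, for IL1RN. With slide as a random block IL18 (1.57) and IL1RN (1.49) in cancer cells, IL1B in macrophages (-2.16) and the difference of IL1RN (-2.57) came to pass, with negative estimated correlations of -0.40, -0.28 and -0.25. In 1 fit of both cell types IL18 in cancer cells (1.49, adjusted p = 0.0271) passed. IL1B and IL1RN in cancer cells could not be tested where all 5 co-cultures had to be well above background.

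Leaving out each line in turn moved IL1B in macrophages between -2.68 and -1.35, and it passed without CMT-U27 (-2.56) or CMT-U309 (-2.68). The other ratios kept their side without any line, though IL1RN in cancer cells moved to 0.72 without CMT-W2, in macrophages to -1.48 without CMT-U27, -0.31 without CMT-W1 and -0.39 when CMT-W2 was left out, and in the difference to -1.11 without CMT-W2. The mono-culture differences in level ran from 6.82 to 7.62 for IL1B, 2.38 to 3.09 for IL18 and 2.09 to 3.49 for IL1RN, where 4 against 4 cannot pass after adjustment. In co-culture the level difference ran from -0.24 to 0.66 for IL1B, negative without CMT-U309 (-0.24) or CMT-W1 (-0.23), and for IL18 it turned positive without CMT-U27 (0.32). With the co-culture as a replicate block the differences stayed at -7.11, -2.96 and -2.25 (limma, adjusted p of 0.00051, 0.0123 and 0.116), and it changed no call.

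Counts of genes called moved by over 1.5 times in cancer cells (3411) with normexp and loess (820), median centring (2229), Cy5 arrays only (1804), the random slide block (7908), and on leaving out P114 (725), CMT-U27 (1193), CMT-U309 (1709) or CMT-W2 (2046). Median centring gave 6561 in macrophages (11955) and 4180 for the difference (8022), where the fixed slide block gave 4, with 3467 at an unadjusted p under 0.05. It moved the median of all genes in cancer cells from -0.05 to 0.16 and in macrophages from -0.17 to 0.01, and the share of calls that were higher from 46.9% to 88.6% in cancer cells and from 47.1% to 21.9% for the difference. The methods' t-test called 7 genes in cancer cells and 10824 in macrophages after adjustment, and 964 and 8931 at their unadjusted threshold. The directions of IL1B, IL18 and IL1RN in each population held under both other normalisations.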
